A study of Chlorocebus sabaeus with 3 samples.

Results

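The transcripts of the vascular endothelial growth factor (VEGF) axis and of its natural opponents were read in 3 tissues of the ocular surface of the vervet monkey (Chlorocebus sabaeus), the limbus, cornea, and conjunctiva. The 8 genes were fixed by name: the ligands VEGFA, VEGFB, and VEGFC, the receptors FLT1 and KDR, and the anti-angiogenic factors THBS1, THBS2, and SERPINF1. All probe sets of the array with 1 of these as their only symbol were used, and 0 others list one of them among several symbols. They numbered 22 among 54675 probe sets, and the 8 genes stand among 19775 symbols. There was 1 array for each tissue. The tissues are described as coming from the same eye. The limbus is the rim where cornea meets conjunctiva. Each piece held the epithelium with the tissue under it, superficial stroma in the cornea and the limbus and Tenon's tissue in the conjunctiva, so epithelial cells, stromal cells, and vessels were measured together. Total RNA was amplified in 2 rounds and hybridized to a human expression array. The labels give no age, sex, or treatment.

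VEGFA is the main growth factor of blood vessels, and it is made by epithelial and stromal cells and induced by low oxygen. It acts on endothelial cells through KDR (VEGF receptor 2), while FLT1 (VEGF receptor 1) binds it tightly and is also made in a soluble form that traps it. VEGFC drives lymphatic vessels, and VEGFB binds FLT1. Thrombospondins 1 and 2 (THBS1 and THBS2) are matrix glycoproteins that inhibit endothelial cells through CD36 and CD47, and SERPINF1 encodes pigment epithelium-derived factor (PEDF), a secreted inhibitor of vessel growth. The cornea has no blood or lymphatic vessels, whereas the limbus and the conjunctiva are vascularized.

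Values are RMA intensities on a linear scale. The median intensity over all probe sets was 49.0 (limbus), 48.8 (cornea), and 50.7 (conjunctiva), so values below about 50 lie in the lower part of an array. Without replicate arrays, differences could not be compared with any replicate error, and p-values are not given. A ratio of at least 2 between tissues within a probe set is used as the mark of a difference, and levels of different probe sets are not compared. The labels of the cornea and the conjunctiva were set beside marker genes, which were chosen with earlier results of these data known. No marker list of the limbus was read, so its label was not checked. All 5 corneal markers measured were highest in the cornea, and all 6 goblet and mucosal markers were highest in the conjunctiva. The human probes were not matched to the vervet sequence here, nor was it determined which splice forms a probe set reads.

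The VEGF ligands VEGFA and VEGFC were lower in the cornea than in both vascularized tissues, by more than 4-fold on the brightest probe set of each gene, that with the highest mean log2 value. Of the 3 inhibitors, THBS1 and THBS2 had their lowest value in the conjunctiva on those probe sets, and SERPINF1 was less than 1.5-fold apart among the tissues. The cornea exceeded the conjunctiva 2.15-fold for THBS1 but only 1.49-fold for THBS2. Over the 7 probe sets of THBS1, the cornea was lowest on 4 and the conjunctiva on 3. Over all 22 probe sets, the cornea was lowest in 14 (63.6%), compared with 33.2% of all probe sets on the array. The conjunctiva was highest in 12 (54.5%), compared with 36.4%. In the plot of levels by tissue, 10 of the 22 probe sets reached 100 in at least 1 tissue: 2 of the 4 for VEGFA, 2 of the 6 for FLT1, 1 of the 7 for THBS1, and the single probe sets of the other 5 genes.

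**Figure D1:**
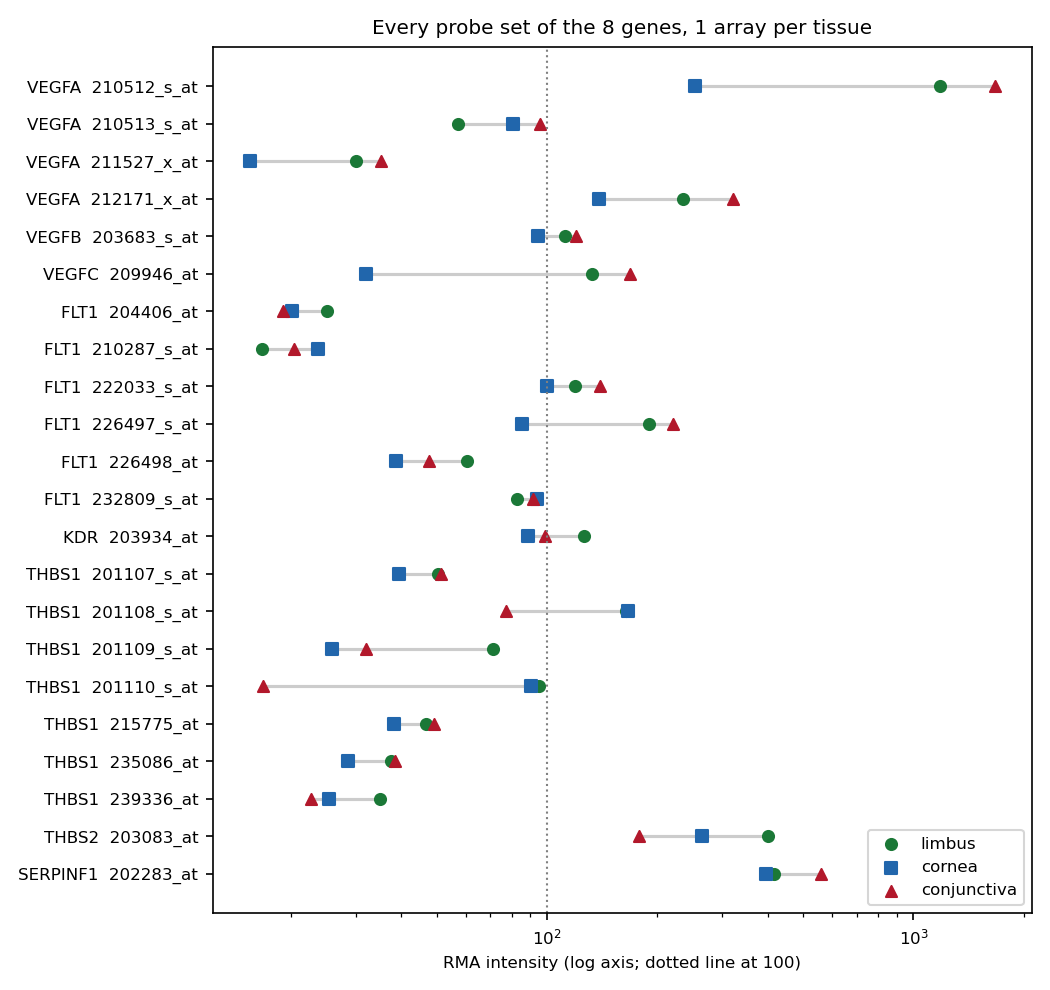
RMA intensity (log axis) of each of the 22 probe sets for limbus (circles), cornea (squares), and conjunctiva (triangles), each from a single array, with a gray line from the lowest to the highest tissue and a dotted line at 100. The brightest VEGFA probe set runs from 253 in the cornea to 1667 in the conjunctiva, and VEGFC from 32.03 to 168, whereas THBS1 and THBS2 have their lowest value in the conjunctiva on their brightest probe sets. Of the 7 THBS1 probe sets, the cornea is lowest on 4.

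Between the limbus and the cornea, 4 of the 22 probe sets exceeded the cornea by at least 2-fold, and on the array as a whole this share was 2.68%. None was at least 2-fold lower, against 1.95% of all probe sets. The 4 belonged to VEGFA, VEGFC, FLT1, and THBS1, and each gene had 1. Between the conjunctiva and the cornea, 5 were at least 2-fold higher in the conjunctiva, 3 of VEGFA and 1 each of VEGFC and FLT1, with 3.79% over the array. The 2 that were at least 2-fold lower there were both of THBS1, with 3.89% over the array. Between the limbus and the conjunctiva, 4 exceeded the conjunctiva by at least 2-fold, 3 of THBS1 and 1 of THBS2, with 1.90% over the array, and none was at least 2-fold lower, with 1.67%. The probe sets of a gene read the same transcripts and are not independent. The median log2 ratio of the 22 was 0.37 for the limbus over the cornea, 0.33 for the conjunctiva over the cornea, and -0.090 for the limbus over the conjunctiva, and over all probe sets it was -0.034, 0.00097, and -0.030.

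VEGFA was measured by 4 probe sets, and all 4 had their highest value in the conjunctiva. On the brightest, 210512_s_at, the intensity was 1179.7 (limbus), 253 (cornea), and 1667 (conjunctiva). The limbus exceeded the cornea 4.66-fold and the conjunctiva exceeded it 6.58-fold, a distance reached upward by 0.406% and 0.543% of all probe sets. The conjunctiva was 1.41-fold above the limbus. On 212171_x_at, the intensity was 235 (limbus), 138 (cornea), and 321 (conjunctiva), with the same order and smaller ratios of 1.70 and 2.33 over the cornea. Another probe set, 211527_x_at, also had this order, at 30.2 (limbus), 15.5 (cornea), and 35.3 (conjunctiva), each below the array median. The exception was 210513_s_at, on which the limbus was lowest at 57.2, with 80.9 in the cornea and 95.6 in the conjunctiva. In the vervet RefSeq annotation VEGFA has 6 transcript models, and names ending in x_at mark probe sets whose probes may bind other transcripts. The size of the VEGFA difference therefore depended on the probe set, while the cornea was lowest on 3 of 4. Read by the median of its probe sets, VEGFA had log2 ratios of 0.42 and 0.93 over the cornea, both short of 2-fold.

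The 3′/5′ ratio of control probe sets, which rises as the amplified RNA gets shorter, differed among the arrays. For GAPDH it was 4.58 (cornea), 3.12 (limbus), and 3.83 (conjunctiva), but for ACTB it was 11.2, 11.8, and 10.3 in that order, so that only by GAPDH did the cornea have the most unequal ends. The part of RNA length in the VEGFA ratios was not tested.

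VEGFC, the lymphatic growth factor, had a single probe set. Its intensity was 132.99 (limbus), 32.03 (cornea), and 168 (conjunctiva). The limbus was 4.15-fold and the conjunctiva 5.24-fold above the cornea, and 0.514% and 0.743% of all probe sets were as far apart in this direction. The corneal value lay under the median of its array. With a pseudocount of 32 added to each value, the log2 ratio of the conjunctiva over the cornea was 1.64 in place of 2.39. VEGFB, which does not share the strong vessel-forming activity of VEGFA, was nearly level. Its intensity was 112 (limbus), 94.4 (cornea), and 120.2 (conjunctiva), a span of 1.27-fold from the lowest to the highest tissue. No ratio of VEGFB reached 2, and the order of the limbus and the conjunctiva turned when the arrays were scaled by their hybridization controls. The ligands thus fell into those with a low corneal value, VEGFA and VEGFC, and 1 without, VEGFB.

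FLT1, the high-affinity VEGF receptor and decoy, was measured by 6 probe sets that did not share 1 order. The brightest, 226497_s_at, was at 189 (limbus), 85.4 (cornea), and 220.1 (conjunctiva). The limbus exceeded the cornea 2.22-fold and the conjunctiva exceeded it 2.58-fold. The next, 222033_s_at, was at 119, 99.9, and 139 in the same order, with 1.40-fold between the conjunctiva and the cornea. The remaining 4 were all below 100 in every tissue, and none of them differed by 2-fold between any pair of tissues. Among these, the cornea was highest on 210287_s_at and 232809_s_at and lowest on 226498_at, and the conjunctiva was lowest on 204406_at. The low corneal value of FLT1 therefore rests on the brighter probe sets. By the median of its probe sets, its log2 ratios over the cornea were 0.21 for the limbus and 0.16 for the conjunctiva, and with a pseudocount of 32 the limbus ratio on 226497_s_at was 0.92, all short of 2-fold. The annotation lists 6 transcript models for FLT1, and no probe set could be assigned here to the soluble or the membrane form.

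KDR, the main signaling receptor, was at 126 (limbus), 88.7 (cornea), and 98.8 (conjunctiva) on its single probe set. The cornea was lowest, but the highest and lowest tissues were only 1.42-fold apart. The ratio of the limbus over the cornea was reached upward by 9.89% of all probe sets. Of the 2 receptors, only FLT1 had a ratio of at least 2 with the values as deposited. When the arrays were divided by their hybridization controls, KDR also passed 2-fold between the limbus and the cornea, with a log2 ratio of 1.13. That scaling raised all ratios alike and moved the median of all probe sets to 0.58 for this pair of tissues.

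THBS1 encodes thrombospondin 1, and its 7 probe sets disagreed. On the brightest, 201108_s_at, the intensity was 164 (limbus), 166 (cornea), and 77.2 (conjunctiva). The cornea exceeded the limbus only 1.01-fold, an order that turned with division by the hybridization controls, and the conjunctiva was 2.15-fold below the cornea. The largest difference was on 201110_s_at, with 94.8 (limbus), 90.5 (cornea), and 16.8 (conjunctiva). There the limbus was 5.65-fold and the cornea 5.39-fold above the conjunctiva, but the conjunctival value lay under the lower quartile of its array (24.5), where ratios are uncertain. With a pseudocount of 32 the log2 ratio of the limbus over the conjunctiva was 1.38 in place of 2.50, and that of the conjunctiva over the cornea -1.33 in place of -2.43. A different order was seen on 201109_s_at, with 71.3 (limbus), 25.9 (cornea), and 32.05 (conjunctiva). On this probe set the limbus exceeded the cornea 2.75-fold and the conjunctiva 2.22-fold. The other 4 probe sets had values between 22.6 and 51.3 in all tissues and no ratio of 2. Of the 7, the cornea was lowest on 4 and the conjunctiva on 3. Read by the median over its probe sets, THBS1 had a log2 ratio of 0.014 for the conjunctiva over the cornea in place of -1.10.

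THBS2, thrombospondin 2, was highest in the limbus. Its single probe set was at 399.9 (limbus), 264 (cornea), and 178 (conjunctiva). The limbus was 2.25-fold above the conjunctiva and 1.51-fold above the cornea, and the cornea was 1.49-fold above the conjunctiva. SERPINF1 was at 415 (limbus), 396 (cornea), and 558 (conjunctiva). The limbus and the cornea differed by 1.05-fold, and the conjunctiva was 1.41-fold above the cornea. THBS1 on its brightest probe set and THBS2 thus had their lowest value in the conjunctiva, where VEGFA and VEGFC were highest, whereas SERPINF1 had its highest value there.

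**Figure D2:**
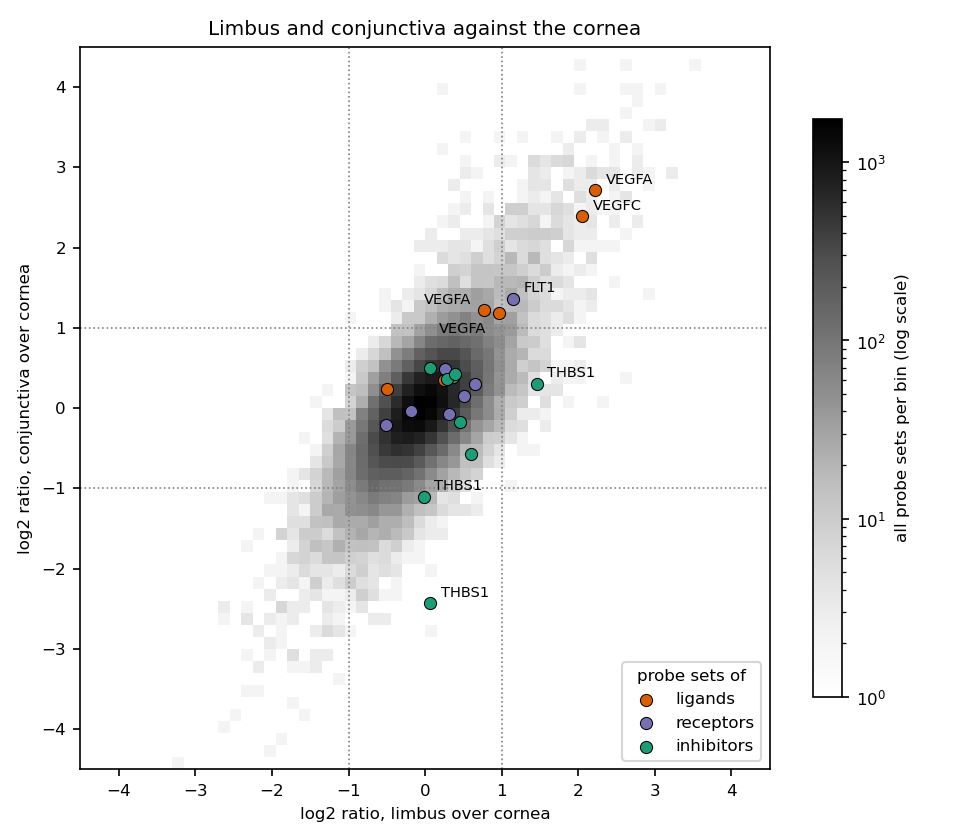
Log2 ratio of the limbus (horizontal axis) and of the conjunctiva (vertical axis) over the cornea, for the 22 probe sets colored by role and for all probe sets as gray bins, with dotted lines at 2-fold and the names of genes past 2-fold; 57 probe sets lie outside the axes. VEGFA at 2.22 and 2.72 and VEGFC at 2.05 and 2.39 stand in the upper right, and a THBS1 probe set at 0.067 and -2.43 stands at the bottom. Both axes share the cornea array.

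Ordered by tissue on the brightest probe set, VEGFA, VEGFB, VEGFC, FLT1, and SERPINF1 ran from the cornea through the limbus to the conjunctiva. The limbus and the conjunctiva were neighbors in this order, and for none of these 5 genes did they differ by 1.5-fold. KDR and THBS2 were highest in the limbus. For FLT1, as for VEGFB, the limbus came above the conjunctiva when the arrays were divided by their hybridization controls, with a log2 ratio of 0.079 in place of -0.22. For VEGFA and VEGFC the conjunctiva was the higher of them under every scaling tried, but for VEGFC this log2 ratio was -0.041 after division by the hybridization controls.

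**Figure D3:**
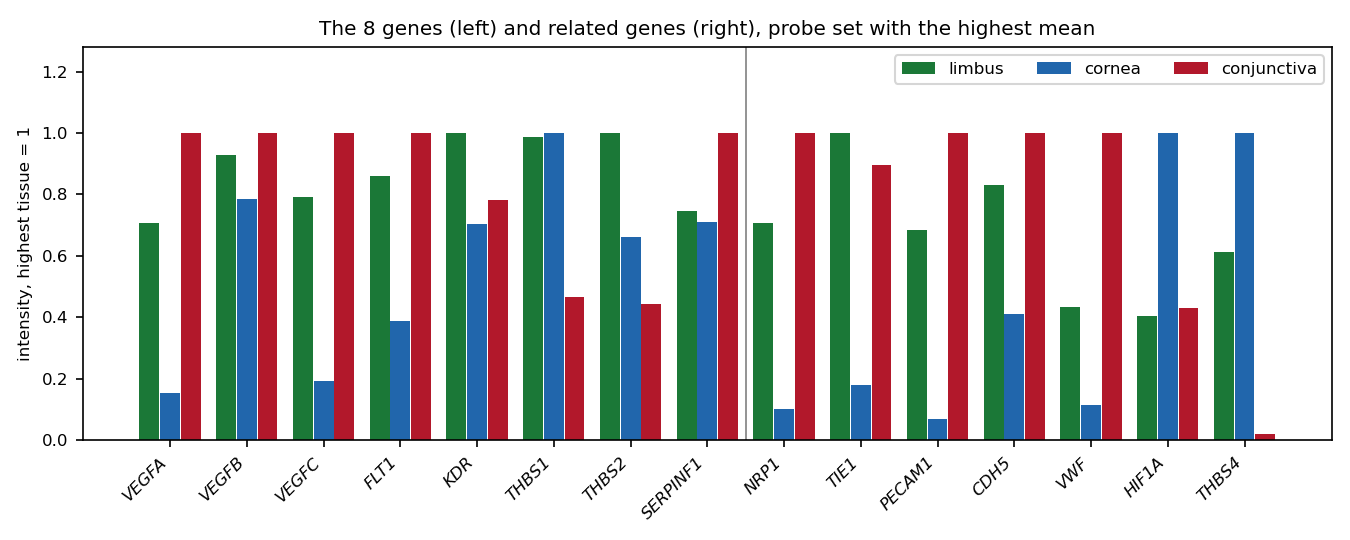
Intensity of each tissue with the highest tissue set to 1, for the 8 genes (left of the line) and for related genes of the lists (right), on the brightest probe set of each gene and from 1 array per tissue. The corneal bars of VEGFA and VEGFC are short, as are those of NRP1, TIE1, PECAM1, and VWF, and for HIF1A and THBS4 the corneal bar is the tallest.

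The rest of the VEGF family was read from a list of other ligands and receptors, with each gene on its brightest probe set. NRP1, a co-receptor that binds VEGFA and presents it to KDR, was at 127 (limbus), 18.2 (cornea), and 180.3 (conjunctiva). This is 6.98-fold and 9.88-fold above the cornea, whose value lay under the lower quartile of its array (23.8). With a pseudocount of 32 the log2 ratios were 1.67 and 2.08 in place of 2.80 and 3.30. The other 3 NRP1 probe sets were below 100 everywhere, and none was 2-fold higher than the cornea in either tissue. PGF, the placental ligand of FLT1, was at 816, 1074, and 978 in the same order, on a probe set open to cross-hybridization. NRP2, the co-receptor of VEGFC, was at 83.0, 122.5, and 89.9, and 1 of its 11 probe sets was lower than the cornea by at least 2-fold in both tissues, at 54.9 (limbus), 207 (cornea), and 34.1 (conjunctiva). FLT4, the receptor of VEGFC on lymphatic endothelium, was at 45.6, 51.7, and 63.4. Of the 4 genes measured, 1 (NRP1) exceeded the cornea by at least 2-fold in both tissues, and none was lower. The share of all genes was 4.06% higher and 2.51% lower for the limbus over the cornea, and 5.68% higher and 5.31% lower for the conjunctiva over the cornea.

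The angiopoietins and their Tie receptors regulate the stability of vessels. Of 5 genes measured, 2 in the limbus and 2 in the conjunctiva exceeded the cornea by at least 2-fold, and none was lower. Of all genes, 4.06% and 5.68% exceeded it, and 2.51% and 5.31% were lower. TIE1, an endothelial receptor, was at 117 (limbus), 21.0 (cornea), and 105 (conjunctiva). ANGPT1, which stabilizes vessels, was at 67.8, 26.4, and 31.6, and in the limbus also exceeded the conjunctiva 2.14-fold, but with the pseudocount its limbus value was less than 2-fold above either tissue. ANGPT2, its antagonist, was at 27.6, 31.8, and 64.4, so that it exceeded the cornea by 2-fold in the conjunctiva only, and not after quantile normalization, median scaling, or the pseudocount. Both angiopoietins were below 100 in all 3 tissues. The Tie2 receptor TEK was at 104, 63.7, and 87.7. The median log2 ratio of the list was 0.71 for the limbus and 0.46 for the conjunctiva over the cornea, against -0.045 and -0.0072 over all genes. Between the limbus and the conjunctiva, ANGPT1 was at least 2-fold higher and ANGPT2 lower, against 2.62% of all genes higher and 2.31% lower.

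Endogenous inhibitors other than the thrombospondins and PEDF went in both directions. Of 20 measured, 4 were at least 2-fold above the cornea in the limbus and 1 was lower. For the conjunctiva over the cornea, 6 were higher and 4 lower, and for the limbus over the conjunctiva 2 were higher and 3 lower. Over all genes, 4.06% were higher and 2.51% lower for the limbus over the cornea. The shares were 5.68% and 5.31% for the conjunctiva over the cornea, and 2.62% and 2.31% for the limbus over the conjunctiva. The type IV collagen chains COL4A1 and COL4A2, whose fragments inhibit endothelial cells, are also structural proteins of vessel basement membranes. COL4A1 was at 350.8 (limbus), 43.0 (cornea), and 553 (conjunctiva), and COL4A2 was at 169.5, 56.9, and 371. The other COL4A1 probe set was at 92.8, 72.2, and 121, with no ratio of 2. TNFSF15, a cytokine that inhibits endothelial growth, was at 471, 96.9, and 1468, and the angiostatic chemokine CXCL10 at 331, 44.3, and 292. In the other direction, the chemokine CXCL14 was at 5517 (limbus), 7637 (cornea), and 1292 (conjunctiva), and its 3 probe sets were all highest in the cornea. SPARC, a matrix protein that binds VEGF, was at 1441, 4006, and 1847, and was less than 2-fold lower than the cornea in both tissues after division by the hybridization controls. The other SPARC probe set was at 190.9, 265, and 167, also highest in the cornea but with no ratio of 2. Further genes past 2-fold were the interleukin 1 receptor antagonist IL1RN at 578, 377, and 168, the protease ADAMTS1 at 134, 82.6, and 298, the proteoglycan LUM at 80.4, 137, and 46.2, and VASH1 at 87.0, 73.7, and 155. COL18A1, the source of endostatin, was at 106, 133.1, and 87.9, with no ratio of 2. The median log2 ratio of the list was -0.027 for the limbus and 0.34 for the conjunctiva over the cornea.

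In the thrombospondin family, the largest difference was that of THBS4. This pentameric thrombospondin was at 4252 (limbus), 6934 (cornea), and 132.5 (conjunctiva) on its single probe set, so that limbus exceeded conjunctiva 32.1-fold and cornea exceeded it 52.3-fold. THBS3 was at 277, 199, and 371, and COMP at 57.2, 70.5, and 57.8. The thrombospondin receptor CD36 was at 70.8, 23.4, and 69.8, and a second of its 5 probe sets was also at least 2-fold higher than the cornea in both tissues. The receptor CD47 was at 1681, 1575, and 2583, with no ratio of 2, although 3 of its other probe sets were at least 2-fold above the cornea in the conjunctiva. Of the 9 genes measured, only CD36 was at least 2-fold higher than the cornea, in both tissues but not with the pseudocount, and only THBS4 was lower, in the conjunctiva. THBS4 was also the 1 gene of the list at least 2-fold higher in the limbus against the conjunctiva. Among all genes, 4.06% in the limbus and 5.68% in the conjunctiva exceeded the cornea by 2-fold, and 2.51% and 5.31% were lower. For the limbus over the conjunctiva, 2.62% were higher. The median log2 ratio of the 9 was -0.30 for the limbus and 0.15 for the conjunctiva over the cornea.

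Genes of oxygen sensing and genes induced by low oxygen were divided between the tissues. Of 19 measured, 2 exceeded the cornea by at least 2-fold in the limbus and 2 were as far below it, and for the conjunctiva 4 were above and 4 below. The shares of all genes were 4.06% above and 2.51% below for the limbus, and 5.68% and 5.31% for the conjunctiva. HIF1A, the oxygen-regulated subunit of the factor that induces VEGFA, was at 2769 (limbus), 6883 (cornea), and 2960.0 (conjunctiva). The glucose transporter SLC2A1 was at 555, 1209, and 482, and the lactate dehydrogenase LDHA at 1020.4, 2036, and 829. These 3 genes were highest in the cornea, where VEGFA was lowest. NDRG1, in contrast, was at 899.7, 295, and 791, and DDIT4 at 486, 215, and 836. Both had their lowest value in the cornea, as VEGFA did, but NDRG1 was highest in the limbus. The cornea was lowest in 7 of the 19, against 33.2% of all genes. EPAS1, another oxygen-regulated subunit, was at 4879, 3650.5, and 4156. Between limbus and conjunctiva 1 gene, BNIP3, was at least 2-fold lower in the limbus and none higher, against 2.31% and 2.62% of all genes. HIF1A and SLC2A1 were no longer 2-fold apart between the limbus and the cornea after the arrays were quantile normalized together or divided by their hybridization controls. With that division HIF1A, HIF1AN, and LDHA were also less than 2-fold apart between the conjunctiva and the cornea. The median log2 ratio of the list was -0.16 for the limbus and -0.23 for the conjunctiva over the cornea.

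**Figure D4:**
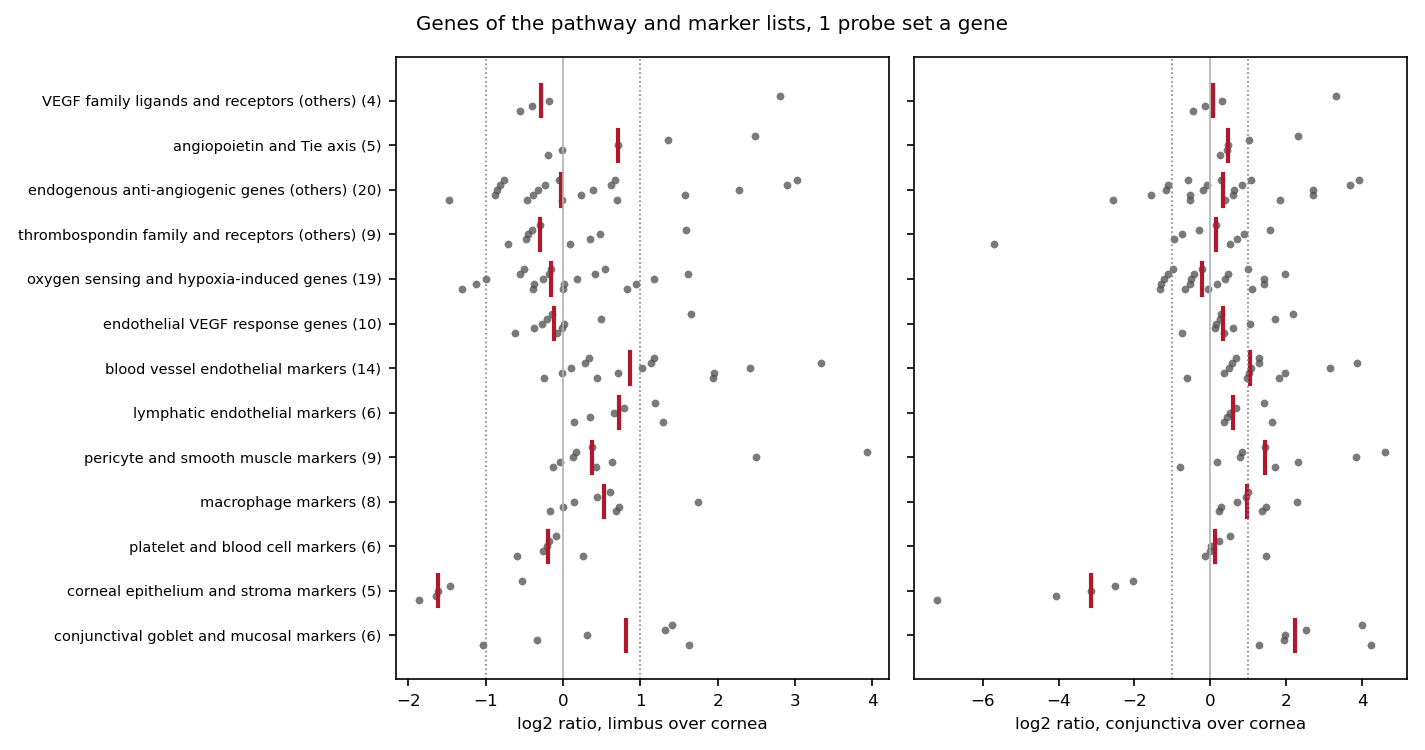
Log2 ratio of the limbus (left) and of the conjunctiva (right) over the cornea for each gene (points) of the pathway and marker lists, on its brightest probe set, with the list median (red bar), the number of genes measured in parentheses, and dotted lines at 2-fold. The medians of the blood vessel endothelial markers are 0.86 and 1.04, and the point farthest to the left among the thrombospondins on the right is THBS4. The horizontal scales of the panels differ.

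Genes that endothelial cells induce in response to VEGF were read as well. Of 10 measured, 1 exceeded the cornea by 2-fold in the limbus and none was lower, and 3 did so in the conjunctiva with none lower. Among all genes, 4.06% and 5.68% exceeded the cornea in these tissues, and 2.51% and 5.31% were lower. The share at least 2-fold below the conjunctiva in the limbus was 2.31%. VCAM1, an adhesion molecule for leukocytes, was at 88.4 (limbus), 28.1 (cornea), and 91.3 (conjunctiva). PLAT, the tissue plasminogen activator, was at 121, 120.5, and 545, and ICAM1 at 181, 183, and 378, and these 2 were also at least 2-fold below the conjunctiva in the limbus. ICAM1 was less than 2-fold above the cornea in the conjunctiva with median scaling or the pseudocount. The endothelial tip cell genes ESM1 and DLL4 had no ratio of 2, with DLL4 at 86.4, 104, and 126. The median log2 ratio was -0.11 for the limbus and 0.33 for the conjunctiva over the cornea.

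Markers of the vessels themselves were read beside the 8 genes. Of 14 blood vessel endothelial markers, 7 in the limbus and 8 in the conjunctiva exceeded the cornea by at least 2-fold, and none was lower. Their summed intensity was 2205 (limbus), 958 (cornea), and 3189 (conjunctiva). The cornea was lowest in 12 of the 14, against 33.2% of all genes. PECAM1 was at 462 (limbus), 45.9 (cornea), and 675 (conjunctiva), VWF at 407, 106, and 939.5, and CDH5 at 152, 75.2, and 184. Of their probe sets, 2 of 5 for PECAM1 and 1 of 2 for VWF exceeded the cornea by 2-fold in each tissue. SOX18 was highest in the cornea, and PLVAP was 0.988-fold of the cornea in the limbus. With a pseudocount of 32, 4 markers in the limbus and 5 in the conjunctiva exceeded the cornea by 2-fold, and CDH5 was among those lost in the limbus, as it was after quantile normalization. No marker can be read as absent, since RMA gives every probe set a positive value. Of 9 pericyte and smooth muscle markers, 2 in the limbus and 5 in the conjunctiva exceeded the cornea by 2-fold. The 2 in the limbus were RGS5, at 470.3, 30.9, and 446, and ACTA2, at 431, 76.4, and 1847, and the other 7 were less than 2-fold apart there. The sum of the 9 was 1595, 709, and 3782, in which brighter probe sets weigh more, among them MYH11 at 160, 142, and 701. Of 8 macrophage markers, 1 in the limbus and 3 in the conjunctiva exceeded the cornea, with sums of 793, 605, and 1168, and with the pseudocount 0 and 1 did. These counts stand beside 4.06% of all genes for the limbus and 5.68% for the conjunctiva. The shares of all genes at least 2-fold below the cornea were 2.51% and 5.31%. In these dissected tissues, fewer cells of a type and less RNA per cell cannot be told apart, and the part of vessel cells, which make FLT1 and KDR, in the ratios of the 8 genes was not tested.

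Some genes had nearly the same profile over the 3 tissues. Among 11002 other genes that reached 100 in some tissue, likeness was measured as the Euclidean distance between log2 values centered on each gene's mean. Nearest to VEGFA were the adenosine receptor ADORA2B, at 222 (limbus), 48.4 (cornea), and 308 (conjunctiva) and a distance of 0.036, then AP1S3 (0.099) and the secreted glycoprotein LRG1 (0.10). For VEGFC they were the fatty acid transporter SLC27A2 (0.044), the activin antagonist FST (0.082), and NRN1 (0.10). For FLT1 they were NFKBIZ (0.023), TMOD1 (0.026), and SFMBT1 (0.031), for THBS1 NIF3L1 (0.018), FAM20A (0.019), and STX5 (0.025), and for THBS2 DHRS9 (0.035), MON1B (0.044), and NR2C1 (0.050). These distances rest on 3 values a gene. Within a distance of 0.25 lay 29 genes for VEGFA, 27 for VEGFC, 116 for FLT1, 148 for THBS1, and 93 for THBS2.

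The scale of the arrays bears on all of these ratios. Division of each array by its 18 hybridization controls multiplies all ratios of the limbus over the cornea by 1.53, of the conjunctiva over the cornea by 1.25, and of the limbus over the conjunctiva by 1.23. Factors of this size cannot turn a ratio of 2 or more. Among the 22, this division turned the direction of 4 for the limbus over the cornea, 4 for the conjunctiva over the cornea, and 9 for the limbus over the conjunctiva, and all of these were less than 2-fold apart as deposited. With it 8 list genes that were 2-fold apart between the limbus and the conjunctiva no longer were: ANGPT2, COL4A2, ADAMTS1, BNIP3, ICAM1, VWF, ROBO4, and KCNJ8.

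**Figure D5:**
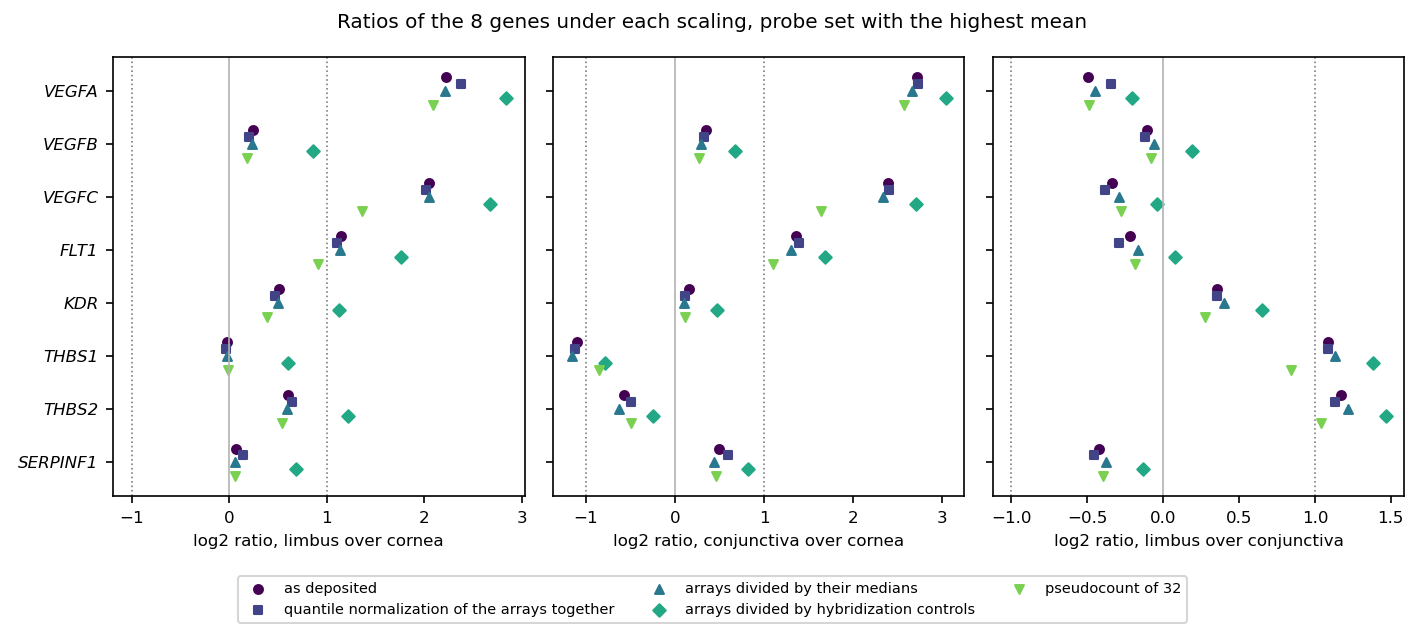
Log2 ratio of each of the 8 genes on its brightest probe set, for the limbus over the cornea (left), the conjunctiva over the cornea (middle), and the limbus over the conjunctiva (right), with the deposited values and with 4 other scalings, and dotted lines at 2-fold. VEGFA and VEGFC stay to the right of the 2-fold line in the left and middle panels with every scaling, while KDR and THBS2 cross it in the left panel with the hybridization controls. The horizontal scales of the panels differ.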

How the data were processed

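Per the labels and the methods of the study, the authors extracted total RNA, amplified it in 2 rounds, and scanned human U133 Plus expression arrays. The deposited intensities are linear, and were made by RMA (version not given in the sources used here) with every array normalized beside the same set of reference arrays, so differences of scale can remain. There is 1 array for each of 3 tissues, with 0 columns of other samples in the table. Precision is limited by the number of arrays.

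Gene symbols came from GEO annotation of the array, which is old. Of 54675 probe sets, 41097 had 1 symbol, 1801 several, and 11777 are not named here. The 8 genes are all in the vervet RefSeq annotation, from which the numbers of transcript models were taken. No sequence is printed, since no sequence table was used here.

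Ratios, counts, and distances were computed with Python 3.11.15, numpy 2.4.6, and pandas 2.3.3, and plots with matplotlib 3.10.9. The threshold was a ratio of 2. Each list gene was represented by the probe set whose mean log2 value was largest. The 13 lists hold 131 entries, of which 121 were measured under a single symbol. The 8 genes, the lists, and the alternatives were chosen with earlier results of these data known. List genes past 2-fold on that probe set and at 100 or more in some tissue could be named, larger changes first, and not all of them are. PECAM1, CDH5, and VWF were always to be named. PGF, NRP2, FLT4, ANGPT1, ANGPT2, TEK, COL18A1, THBS3, COMP, CD36, CD47, EPAS1, VCAM1, ESM1, DLL4, SOX18, PLVAP, KCNJ8, LYVE1, and PROX1 lie outside this rule and were chosen after their values were seen. Nearest profiles are given for the 5 of the 8 genes past 2-fold on their brightest probe set. Hybridization controls were averaged as a geometric mean. Counting was tested on simulated data. Alternatives were other scalings, a pseudocount of 32, ratios of 1.5 and 3, a minimum of 100, omission of x_at probe sets, and other units of counting.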

Additional observations from a re-analysis of the deposited data

How the results depend on the processing

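No array has a replicate, so none could be left out, and a count is taken as moved when it changed by more than 1.5 times. No paired analysis was possible because each tissue has 1 array. For the limbus over the cornea, the 4 probe sets of the 8 genes that were higher became 11 with division by the hybridization controls, 2 with the pseudocount, 8 at a ratio of 1.5, 2 at a ratio of 3, and 1 by the gene median (of its probe sets). Over all 54675 probe sets, 1466 were higher as deposited, 8151 with the hybridization controls, and 719 with the pseudocount. For the conjunctiva over the cornea, the 5 that were higher became 2 at a ratio of 3, 3 without x_at probe sets, 3 with 1 probe set a gene, and 1 by the gene median. The 2 that were lower became 1 with the hybridization controls, the pseudocount, a ratio of 3, the minimum level, or 1 probe set a gene, and 0 by the gene median. Over all probe sets, 2129 were lower as deposited, 1065 with the hybridization controls, and 1204 with the pseudocount. For the limbus over the conjunctiva, the 4 that were higher became 2 with the pseudocount, the minimum level, or 1 probe set a gene, and 1 at a ratio of 3 or by the gene median, and 1 was lower at a ratio of 1.5 in place of 0. Here 1039 of all probe sets were higher as deposited and 431 with the pseudocount.

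The 6 pathway lists together had 11 genes above the cornea in the limbus, which became 22 with the hybridization controls and 17 at a ratio of 1.5, and 3 lower, which became 1 after quantile normalization, 0 with the hybridization controls or a ratio of 3, and 10 at a ratio of 1.5. For the conjunctiva over the cornea, 17 higher became 10 at a ratio of 3, and 9 lower became 4 with the hybridization controls, 15 at a ratio of 1.5, and 2 at a ratio of 3. For the limbus over the conjunctiva, 4 higher became 2 by the gene median, and 7 lower became 2 with the hybridization controls or a ratio of 3, 3 with the pseudocount, and 18 at a ratio of 1.5. Of the ratios of single genes past 2-fold, 1 changed sign: THBS1, conjunctiva over cornea, with a log2 ratio of 0.014 by the gene median in place of -1.10. That median sets different probe sets against each other. Among the alternative counts, 36 moved by more than 1.5 times and 78 did not. A stricter ratio, a minimum level, or a pseudocount can only lower a count, and a ratio of 1.5 can only raise it. Division by the hybridization controls multiplies all ratios of a pair of tissues by the same factor. The cause of the remaining changes was not tested. The marker lists were put through the same scalings after their values were seen. With the pseudocount, the 7 and 8 blood vessel endothelial markers above the cornea in limbus and conjunctiva became 4 and 5, the 1 and 3 macrophage markers 0 and 1, and the 2 and 2 lymphatic markers 0 and 1. With the hybridization controls they became 9 and 10, 5 and 6, and 4 and 2. The shares of all genes under these scalings were not computed. Over all probe sets, the hybridization controls raised those above the cornea from 1466 to 8151 (limbus) and from 2073 to 4296 (conjunctiva). The pseudocount lowered them to 719 and 1177.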

Other observations

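Markers of lymphatic endothelium, on which VEGFC acts, were lowest in the cornea in 6 of 6 genes on the brightest probe set of each. Only 3 of the 6 reached 100 in some tissue on it. The limbus was lowest on 2 of the 4 probe sets for PDPN, 1 of the 4 for PROX1, and 1 of the 2 for STAB2. A ratio of 2 over the cornea was reached by 2 of the 6 in each of the other tissues. With a pseudocount of 32 these were 0 in the limbus and 1 in the conjunctiva. Over all genes, the cornea was lowest in 33.2%, and 4.06% in the limbus and 5.68% in the conjunctiva exceeded it by 2-fold. The chemokine CCL21 was at 182 (limbus), 79.6 (cornea), and 245 (conjunctiva). The hyaluronan receptor LYVE1 was at 43.8, 25.4, and 68.1, under the median of the array in the limbus and the cornea. The transcription factor PROX1 was at 157, 143, and 194, with no ratio of 2. Platelet and blood cell genes, which are not made by the vessel wall, were lowest in the cornea in 1 of 6 on the brightest probe set. Only 2 of the 6 reached 100 in some tissue. Of these, none exceeded the cornea by 2-fold in the limbus and 1 did in the conjunctiva, the hemoglobin chain HBB at 132 (limbus), 149.6 (cornea), and 414 (conjunctiva). HBB had 4 probe sets, and 3 of them exceeded the cornea by 2-fold in the conjunctiva. The cornea was lowest on 2, at 99.6 (limbus), 52.4 (cornea), and 645 (conjunctiva) and at 107, 63.4, and 457. The limbus and the conjunctiva were each lowest on 1.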
